A study of Rattus norvegicus with 8 samples.

Results

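Among the polyadenylation sites counted in the rat hypothalamus, the simplest genes to read are those with exactly 2 of them, an upstream (proximal) and a downstream (distal) one. The members described here were 1390 of 10746 protein-coding genes, with 2780 of the 73922 sites of the series. They were selected on the read counts: sites were kept on the strand with the larger read sum of a gene, and genes were taken that had 2 such sites and at least 100 reads over the 8 libraries. The sites of a gene were ordered along its strand, and the distal share is the percentage of the reads of that gene in a library that lay at the downstream site. The rule uses the number of sites and the reads, so neither is a finding here, and no difference between the groups, although the genes were proposed for description with results of these data known. The strand of a gene was taken from its reads and not from an annotation. The libraries came from adult male Long-Evans rats. In the control group 4 rats ate standard chow, and in the obesity group 4 rats had free access to a high fat diet (diet-induced obesity). Tissue was taken after 36 days in both. The series gives 8 rats and 8 libraries. The libraries are numbered 1 to 4 in each group, with no label for what libraries of the same number have in common.

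Most mammalian genes can end their mRNA at more than 1 place. The cleavage and polyadenylation machinery reads a signal in the nascent RNA, cuts downstream of it and adds a poly(A) tail, and the choice between sites sets how much of the 3′ untranslated region, or in some genes of the coding sequence, the mRNA carries. Sites far apart can lie in different terminal exons or in introns, whereas sites close together shorten or lengthen a single untranslated region. Neurons are known for their use of downstream sites. Whole transcriptome termini site sequencing (WTTS-seq) reads the 3′ ends themselves, so each read counts for 1 site.

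The 8 libraries held 1417531 to 1957726 reads each, of which the members took 3.29% to 4.62%. Every site in the table had at least 30 reads over the 8 libraries. A member at the minimum of 100 reads could therefore hold a distal share of no less than 30%, and the counts could not list a weaker site at such a gene. There were 9 genes just inside that minimum, among them Adamts5 with 59 proximal and 41 distal reads, and 14 just outside it with 99 reads, among them Pax6 with 66 and 33 and Acot9 with 62 and 37. In all, 503 genes with 2 sites had too few reads, 3349 genes had 1 site and 5504 had 3 or more. A typical member had 25 reads in a library (median), and 12 distal reads of 25 give a share of 48.0% with a 95% Wilson interval of 30% to 66.5%. Reads carried no molecular identifiers, so this interval covers counting error only. The spread of the share between libraries of a group was larger: its variance was 3.75 times the binomial variance at the median member (3.19 in control and 4.31 in obesity), and it exceeded the binomial variance in 96.5% of the members. All 12 hypothalamic neuron markers checked had sites in the table. They summed to 1203 to 1847 CPM (reads scaled to the TMM-adjusted library size) over the controls and 1048 to 1385 over the obesity libraries. For the 8 astrocyte markers the ranges were 3453 to 4652 and 2533 to 3966, and for the 10 oligodendrocyte markers 17560 to 23090 and 13540 to 21280. Of the 6 choroid plexus markers 5 had no site and the other 1 had 0 to 1.52 CPM in control and 0 to 98.0 in obesity. Of the 7 anterior pituitary markers 4 had none, and the other 3 summed to 17.9 to 56.0 and 6.13 to 127. The 6 thalamus markers summed to 138 to 235 and 91.6 to 257. The ranges overlapped for every list named here, and the part of these cells in the distal shares was not tested.

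The distance between the 2 sites ran from 25 to 470131 bases with a median of 3236, and 25 bases was also the smallest distance between any neighbouring sites of 1 strand in the table. In 101 genes the sites lay under 100 bases apart, in 316 genes from 100 to under 1000, in 624 genes from 1000 to under 10000 and in 349 genes 10000 bases or more. The authors assigned both sites to the same transcript in 91.9% of the members, from 98.0% of the closest to 86.3% of the most distant. Mecom, the gene of a zinc finger transcription factor, had the greatest distance, with 50 proximal and 62 distal reads over the 8 libraries. A site of another gene lay between the 2 sites in 30 members. The positions are on Rnor_6.0 as deposited; no genome or annotation of that build was used here, so sites were not placed in exons, introns or untranslated regions.

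The distal site was the larger in 816 members, the proximal in 569, and 5 were equal. The balance moved with distance. The distal site was the larger in 48.5% of the genes with sites under 100 bases apart, in 54.1% at 100 to under 1000, in 59.1% at 1000 to under 10000 and in 65.0% at 10000 bases or more, and the median distal share went from 48.6% in the closest to 60.7% in the most distant class. Across the 1390 genes the Spearman correlation of the distal share with the log distance was 0.123, and with the log of the reads 0.200. Genes are not replicates and share their libraries, so these are descriptions. The read cutoff per site touches them as well, because the genes with distant sites had fewer reads (median 167, against 245 for the closest).

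**Figure D1:**
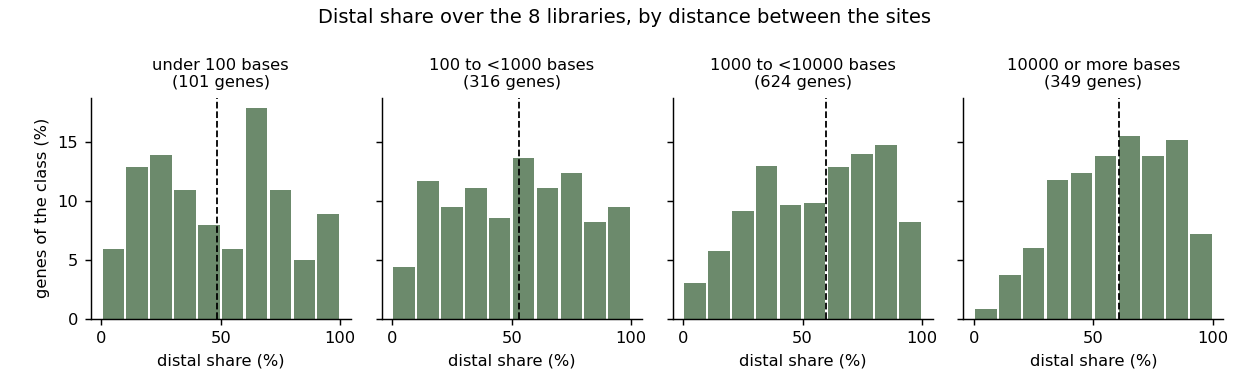
Histograms of the distal share over the 8 libraries (x axis, percent) by distance class, as a percentage of the genes of each class (y axis), with the median as a dashed line. Low distal shares were rare where the sites lay 10000 bases or more apart: 3 of those 349 genes were under 10%, and 24 were over 90%.

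The same site was the larger in all 8 libraries in 467 members (33.6%). Distal reads outnumbered proximal reads in all 8 libraries in 306 members and the reverse held in 161, so the larger site changed between libraries, or was level in 1 of them, in the others. Counting error at a median of 25 reads also gives such changes, and its part was not tested. In the most distant class the proximal site was the larger in every library in 14 genes (4.01%) and the distal in 69 (19.8%). The site with more reads was also the broader in the median. The median width of the cluster of read ends was 11 bases proximal and 17 distal in genes with a larger distal site. In genes with a larger proximal site it was 15 proximal and 12 distal. Width is the span of the read ends and can only grow as reads are added, so the split by reads itself favours this.

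Several of the most abundant members kept nearly all reads at the distal site. Atp6ap1, which encodes an accessory subunit of the vacuolar proton pump, had 8128 reads with a distal share of 99.6%, and its 8 libraries lay between 99.0% and 100%. Iscu, the scaffold for iron-sulfur cluster assembly (6286 reads), had 99.5%. Nsmf, a synapse-to-nucleus messenger (5540 reads, sites 4542 bases apart), had 98.8%, Rhbdl1 99.4% and Sh3glb2 99.3%. In Atg13 of the autophagy initiation complex the sites were 29594 bases apart and 98.3% of the reads were distal. These shares differed by less than 1 percentage point between the group means. The proximal sites of these genes held few reads over the 8 libraries, near the minimum of 30 per listed site. Iscu and Rhbdl1 had 30, Atp6ap1 33, Sh3glb2 39, Atg13 48 and Nsmf 67. In an abundant gene a proximal site near that minimum gives a distal share near 100%.

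Among the 20 members with at least 80 reads in every library and an overall share of 10% to 90%, Smim10l1 had the smallest SD of the share over the 8 libraries, which lay between 87.8% and 92.3%. Rnf187, a RING-type ubiquitin ligase gene, ranged from 81.2% to 95.4%, and Zbed6 from 3.14% to 17.6%. At the other end stood Lonp1, the ATP-dependent protease of the mitochondrial matrix, with sites 7491 bases apart. Its share was 21.3% in control 1 and 12.1% in obesity 1, and lay between 52.9% and 75.7% in the other 6 libraries. Both low values came with many proximal reads, 463 and 496 against 42 to 116 elsewhere. Zcchc9, a zinc knuckle protein gene with sites 118 bases apart, had a share of 44.6% in control 4 and 58.2% in obesity 4, and of 1.11% to 19.4% in the other libraries.

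Such pairs of same-numbered libraries across the groups were a general feature of the members. The deviations of the distal share from the group mean correlated at 0.167 to 0.294 between libraries with the same number and at -0.205 to 0.025 between those with other numbers, over the 1344 members with reads in all 8 libraries. Deviations from a group mean cancel out within the group, so positive values for the same number lower the others by arithmetic. The median absolute difference in share between a control and an obesity library was 14 percentage points when they had the same number and 17.4 when they did not, and libraries of the same group with other numbers differed by 15.2 in control and 17.7 in obesity. A fit with the number as a replicate block is therefore given beside the fit without it wherever the count of calls moved by more than 1.5 times.

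**Figure D2:**
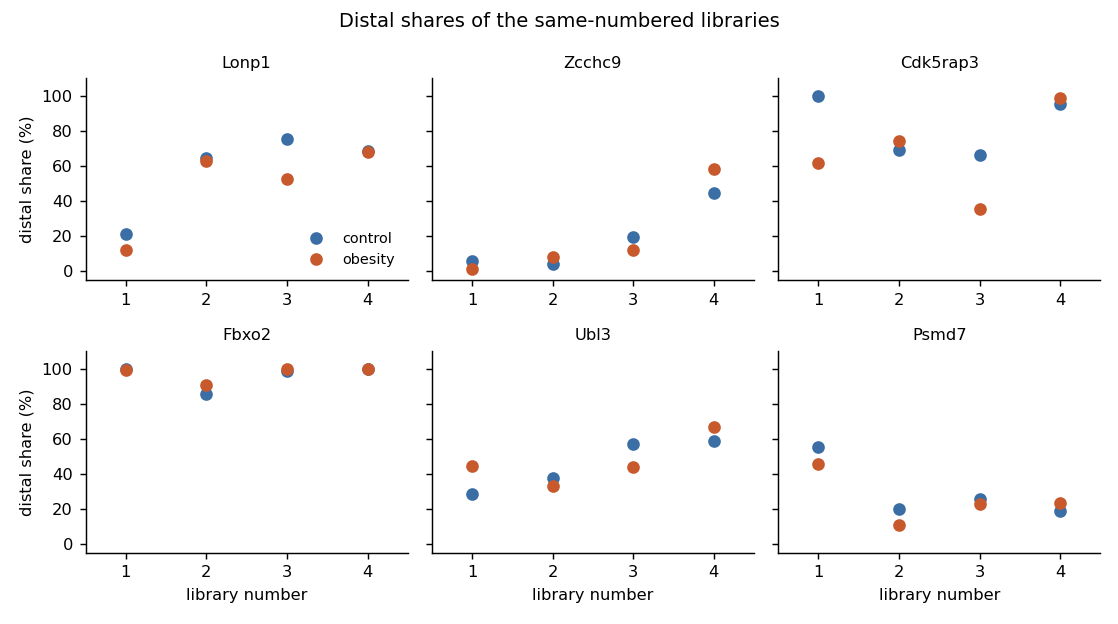
Distal share (y axis, percent) of 6 members by library number (x axis), 1 point per library, control in blue and obesity in orange. In Lonp1 both libraries numbered 1 are the lowest, in Zcchc9 both numbered 4 are the highest, in Fbxo2 both numbered 2 are the lowest, and in Psmd7 both numbered 1 are the highest. Ubl3 and Cdk5rap3 differ widely between libraries as well. The genes were picked for display after their values were seen.

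The comparison of diets asked whether reads moved between the proximal and the distal site. The mean distal share over the members was 57.7%, 56.6%, 58.9% and 56.0% in controls 1 to 4, and obesity libraries 1 to 4 had 55.6%, 57.9%, 52.8% and 53.1%. The group means were 57.3% ± 1.29 and 54.9% ± 2.39 (SD, n = 4), a difference of -2.45 percentage points with an SE of 1.36. In 3 of 4 same-numbered pairs the obesity library was lower, and in the pair numbered 2 it was higher by 1.36. Obesity 2 lay among the controls and control 3 was the highest of all 8, so the groups overlapped. No test was run on this mean, since the members were chosen with results known.

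The difference was greatest where the sites lay far apart. With 10000 bases or more between the sites the mean share was 59.7%, 62.7%, 64.3% and 60.2% in control and 55.4%, 63.0%, 55.1% and 53.3% in obesity, or 61.7% ± 2.19 against 56.7% ± 4.30 (SD, n = 4). That is -5.05 points with an SE of 2.41. All obesity libraries other than obesity 2 were below every control library. The differences were -2.04 at 1000 to under 10000 bases, -0.737 at 100 to under 1000 and -1.39 under 100 bases. By quartiles of distance they were -0.970, -0.275, -3.55 and -5.01. The differences between classes were not tested.

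**Figure D3:**
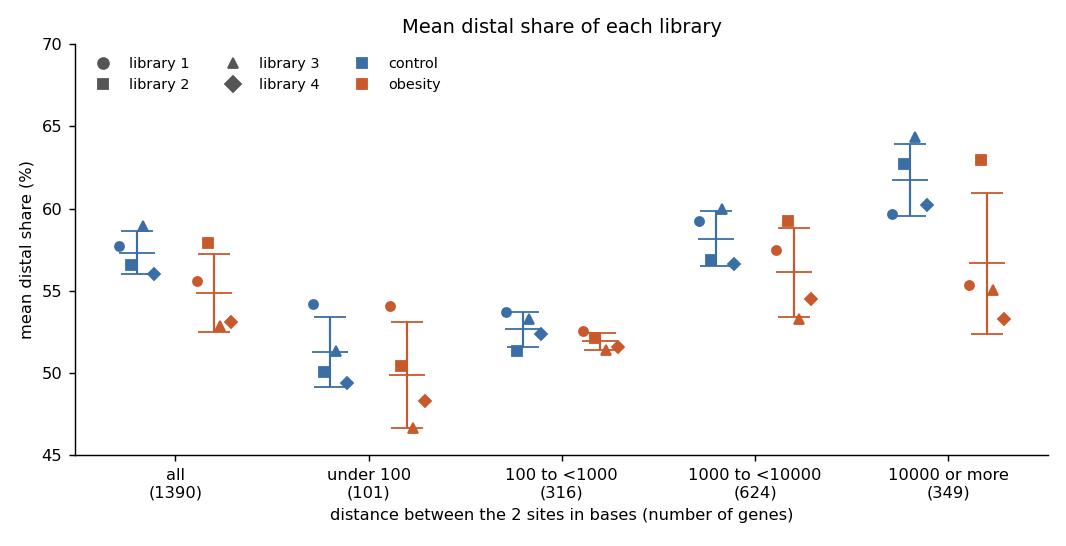
Mean distal share of each library (y axis, percent; the axis starts at 45) over all members and by distance between the sites in bases (x axis, number of genes in brackets). Symbols mark the library number and colours the group; bars give the group mean and SD. In the most distant class obesity 1, 3 and 4 lie at 53.3% to 55.4%, below all controls, and obesity 2 at 63.0% lies among them.

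Without control 3 and obesity 2, a choice made after their values were seen, the difference was -2.93 over all members and -6.27 in the most distant class. Among the 67 members with at least 80 reads in every library it was -0.695, and -2.08 over the 5 of these with sites 10000 bases or more apart. With at least 200 reads per gene it was -1.69 and -3.26. The same 2 libraries had the highest mitochondrial share of reads: 8.27% in control 3 and 6.99% in obesity 2, against 5.32% to 6.23% in the other controls and 3.86% to 4.34% in the other obesity libraries. Control 1 and obesity 1 had the most sites without a read (14788 and 10659, against 4062 to 6622). The part of these library properties in the share was not tested.

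In the most distant class the proximal sites summed to 2117, 1831, 1728 and 2004 RPM (reads scaled to the total of the library) in control and 2502, 1752, 2517 and 2386 in obesity. The distal sites summed to 4157, 4484, 5350 and 4893 in control and 3325, 4637, 4522 and 4317 in obesity. So obesity 1, 3 and 4 were above every control at the proximal sites, while at the distal sites the groups overlapped. At 1000 to under 10000 bases the proximal sums were 6018 ± 115 and 5779 ± 383 and the distal sums 11370 ± 1522 and 9769 ± 1681 (SD, n = 4). Reads are a share of a library, so fewer cells of a type and less RNA per cell cannot be told apart. In the site fit the median log2 fold change was 0.01 for the proximal and -0.24 for the distal sites of all members, and 0.14 and -0.17 in the most distant class, beside 0.05 for all sites of the table. With the replicate block these medians were -0.03 and -0.28, 0.11 and -0.26, and 0.01 for all sites, so the median of the proximal sites of all members changed sign.

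**Figure D4:**
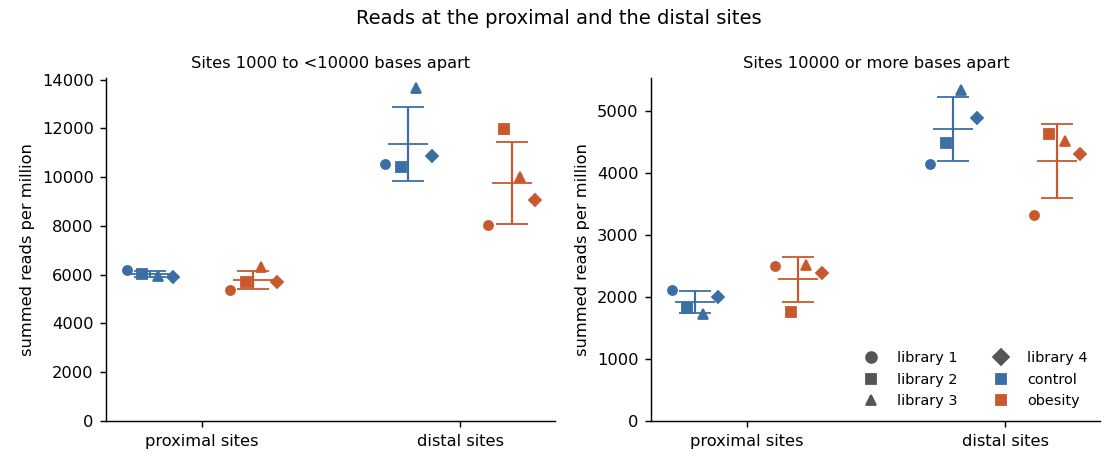
Summed RPM (y axis, from 0) at the proximal and distal sites of members with sites 1000 to under 10000 bases apart (left) and 10000 or more (right), 1 symbol per library with group mean and SD. On the right the proximal sums of obesity 1, 3 and 4 (2386 to 2517) exceed the highest control (2117).

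A lower share was not particular to genes with 2 sites. Of the members 818 (58.9%) had a lower mean share in obesity and 572 a higher one, with a median difference of -2.03 points. Over all 7400 genes of the table with 2 or more sites and 100 reads, the share at the downstream-most site was lower in 62.4%, with a median of -1.57. In protein-coding genes with 3 to 5 sites that share went from 35.0% ± 1.62 to 31.8% ± 2.09, with 6 to 20 sites from 17.1% ± 1.25 to 14.9% ± 1.59, and with over 20 sites from 6.38% ± 0.626 to 5.13% ± 0.838 (SD, n = 4). Every obesity library lay below every control library in 29 members (2.09%), where 2.58% of all genes did so, and above in 9 members (0.647%), where 0.473% of all genes did.

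No member passed an adjusted p of 0.1 for site use. In diffSpliceDGE of edgeR, whose gene-level Simes p asks whether the sites of a gene moved apart, 0 of 1390 members passed, 9 (0.647%) fell under 0.05 before adjustment, beside 1.36% of all 7996 genes, and 2 (0.144%) under 0.01, where 0.338% of all genes did. With the replicate block 17 (1.22%) were under 0.05, beside 2.80% of all genes, and 6 (0.432%) under 0.01, where 0.713% of all genes were called, and none passed the adjusted threshold. limma's voom with diffSplice gave 0 adjusted calls, 48 under 0.05 (3.45%, beside 2.56% of all genes) and 7 under 0.01 (0.504%, beside 0.463%). In an edgeR fit of the distal beside the proximal reads, added after the data were seen, 0 members passed, 35 (2.52%) had p under 0.05, beside 3.04% of all genes, and 5 (0.360%) under 0.01, where the background was 0.5% of all genes. With the block 62 (4.46%) were under 0.05, beside 5.92%, and 13 (0.935%) under 0.01, where the background was 1.34%. The median change in log2(distal/proximal reads) in that fit was -0.25 for the members, -0.39 in the most distant class and -0.30 for all genes. For genes with more than 2 sites that fit set the downstream-most site against all other sites. The values for all genes are therefore not quite the same measure as those for the members. The share of members called was below that of all genes in these 4 edgeR fits and above it in limma. These differences were not tested.

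COX2, the mitochondrially encoded subunit II of cytochrome c oxidase, was the member with most reads, and its groups did not overlap. It held 27092 reads, 5.16% of all member reads, at chrMT:7068-7415 (proximal, plus strand) and chrMT:7427-7711 (distal). These clusters of read ends were 348 and 285 bases wide, beside medians of 13 proximal and 15 distal over all members. Its share thus compares 2 broad stretches of read ends and not 2 narrow sites. The distal share was 82.8%, 83.6%, 79.8% and 81.2% in control and 64.7%, 67.6%, 62.8% and 64.5% in obesity. The means were 81.8% ± 1.69 and 64.9% ± 2.01 (SD, n = 4), with a gap of over 12 points between the lowest control and the highest obesity library, obesity 2 included. Controls had 526 to 753 proximal and 2270 to 3473 distal reads, and obesity libraries 909 to 1435 and 1534 to 2999. The gene sum did not pass (log2 fold change -0.25, SE 0.24, edgeR adjusted p = 0.962). In the fit of distal beside proximal reads the log2 ratio differed by -1.29 (SE 0.44, edgeR adjusted p = 0.999). It was among the 6 members under 0.01 in the blocked Simes test and not in the unblocked one (edgeR adjusted p = 1 in both). COX2 is transcribed from mitochondrial DNA, where RNA is cut out of long precursors and tailed by another polymerase than in the nucleus. ND6, encoded on the minus strand, had a distal share of 87.9% ± 3.87 and 91.0% ± 2.30 (SD, n = 4), and its groups overlapped. The third mitochondrial member was listed as ND4L, but its minus-strand sites lie opposite to that gene, so its share is not described.

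Dynlrb1, a light chain of the dynein motor (chromosome 3, plus strand, sites at chr3:150778074-150778081 and chr3:150782475-150782503), had the smallest p for site use of all members. The proximal site had 13, 20, 35 and 14 reads in control and 1, 5, 3 and 1 in obesity, and the distal site 163, 133, 150 and 95 in control and 96, 133, 162 and 111 in obesity. The groups did not overlap in the distal share, 86.9% ± 4.71 against 98.2% ± 1.26 (SD, n = 4), while the distal reads did. The log2 ratio differed by 2.90 (SE 0.73, edgeR adjusted p = 0.999, and 1 in the Simes test). On the same strand, at chr3:150802658-150802681, began the sites of Map1lc3a, the autophagosome protein LC3A, whose share went the other way. Its proximal site had no read in control 1, 2 and 4, 3 in control 3 and 5 to 10 in each obesity library, and controls had a distal share of 97.4% ± 5.17 and obesity libraries 63.4% ± 7.22 (SD, n = 4).

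Fen1, the flap endonuclease of DNA replication and repair, had its sites only 27 bases apart (chr1:226251542-226251546 proximal and chr1:226251511-226251517 distal, minus strand). The proximal site had 40, 25, 46 and 15 reads in control and 84, 37, 103 and 63 in obesity. The distal site had 24, 17, 22 and 15 in control and 20, 2, 7 and 8 in obesity. Control libraries had a share of 40.1% ± 7.42 and obesity libraries 10.5% ± 6.40 (SD, n = 4), without overlap, a log2 ratio of -2.55 (SE 0.75, edgeR adjusted p = 0.999). Of the 101 genes with sites under 100 bases apart it was the 1 whose obesity libraries all lay below the controls.

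Wdr34, an intermediate chain of the dynein that works in cilia, had sites 12666 bases apart on chromosome 3. The proximal site, a single base wide in the table, had 0, 0, 2 and 0 reads in control and 12, 3, 8 and 9 in obesity. All obesity libraries were thus above all controls there, and the distal reads, 25 to 68 in control and 18 to 53 in obesity, overlapped. The log2 ratio differed by -4.13 (SE 1.16, edgeR adjusted p = 0.999). Similar starts from few proximal reads in control were seen in Hdac1, a histone deacetylase (0, 1, 2 and 1 reads in control, 4, 8, 18 and 3 in obesity), and in Vps18 of the endosomal tethering complexes (0, 5, 6 and 2 in control, 13, 16, 10 and 18 in obesity). Fitted ratios of such genes rest on the prior count. The proximal sites of Wdr34, Hdac1 and Map1lc3a held 34, 37 and 34 reads in all, beside the minimum of 30 per listed site. They would not have been listed on the control reads alone, so the site minimum favours this kind of one-sided count.

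Cxxc5 and Setdb2 had fewer distal reads instead. In Cxxc5, a CXXC zinc finger protein gene whose sites were assigned to different transcripts, the distal site had 12, 4, 4 and 13 reads in control and 0, 1, 3 and 1 in obesity. In Setdb2, a histone methyltransferase gene, it had 10, 12, 7 and 6 in control and 1, 2, 4 and 0 in obesity, of 31 to 86 reads per library in control. Wdr1, which disassembles actin filaments, had a share of 92.6% ± 5.60 in control and 0.0%, 78.6%, 85.7% and 46.9% in the obesity libraries.

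In the other direction stood Ttll3, a tubulin glycylase, with a share of 43.3%, 80%, 45.5% and 58.3% in control and 84.2%, 96.4%, 100% and 100% in obesity. Prkra, an activator of the RNA-dependent kinase PKR, had 18.8% ± 28.4 and 91.3% ± 11.8 (SD, n = 4) on 116 reads in all. Slc25a25, a mitochondrial ATP-Mg/phosphate carrier, had 0 to 1 distal reads per control library and 4 to 16 per obesity library. Adam17, the shedding protease of TNF, went from 51.6% ± 7.73 to 67.9% ± 6.11, Hbp1 from 13.6% ± 3.99 to 27.7% ± 5.10, Wdr44 from 35.0% ± 7.01 to 56.2% ± 11.1 and LOC103691020 from 15.7% ± 5.11 to 36.9% ± 10.2. All were taken because their groups did not overlap, so the separation itself is a description. The smaller sites of Ttll3, Slc25a25 and Cxxc5 held 33, 32 and 38 reads in all, near the minimum of 30 per listed site. They would not have been listed on the reads of their lower group alone, so the site minimum favours such one-sided counts.

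**Figure D5:**
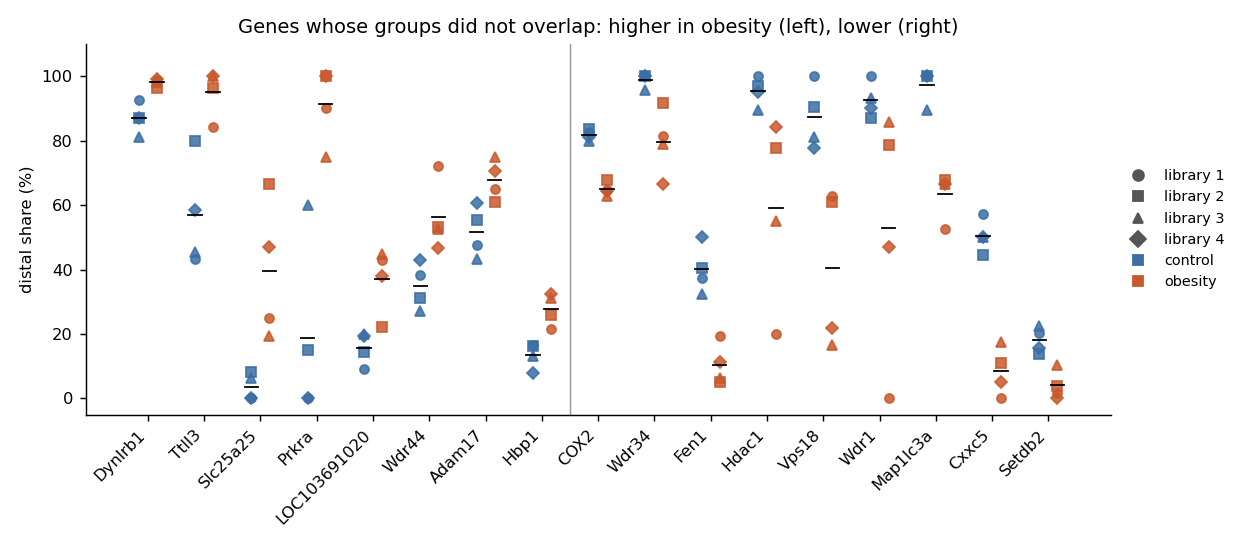
Distal share (y axis, percent) of 17 members whose groups did not overlap, 1 symbol per library (shape for the library number, blue for control, orange for obesity) with the group mean as a black line. COX2 has tight groups (SD 1.69 and 2.01), and genes with few reads such as Prkra, Wdr1 and Hdac1 have wide ones.

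At single sites, 0 of the members' 2780 sites passed an adjusted p of 0.1 in edgeR, 85 (3.06%) had p under 0.05, beside 3.14% of all sites, and 9 (0.324%) under 0.01 (2 higher and 7 lower), where 0.502% of all sites did. DESeq2 gave 0 adjusted calls and 19 under 0.01 (0.683%, beside 0.925% of all sites). With the block 215 (7.73%) had p under 0.05, beside 6.09% of all sites, and 53 (1.91%) had p under 0.01, 9 higher and 44 lower in obesity, where 1.64% of all sites were called. Of these 53 sites 38 were distal (2.73% of the distal sites) and 15 proximal (1.08%). All 12 in the most distant class were distal, 10 of them lower. Of the 9 sites under 0.01 in the fit without the block, 6 were proximal (0.432%) and 3 distal (0.216%). In the most distant class that fit had 1 site under 0.01, a distal one. The split between proximal and distal sites thus depended on the block. Without both libraries numbered 2, the blocked fit called 24 sites of members at an adjusted p of 0.1 (12 proximal and 12 distal, 10 lower in each; 0.495% of all sites were called there), the distal site of COX2 and the proximal sites of Dynlrb1 and Kcna1 among them.

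Gene sums told total output apart from site use. In edgeR 0 of 1390 members passed an adjusted p of 0.1, 83 (5.97%) had p under 0.05, beside 5.12% of all genes, and 15 (1.08%) under 0.01, where 0.783% of all genes did. With the block 164 (11.8%) had p under 0.05, beside 10.9%, and 49 (3.53%) under 0.01, where 3.48% of all genes did, and 6 passed the adjusted threshold, where 0.277% of all 12255 genes were called. All 6 were lower in obesity. Without both libraries numbered 2 the blocked count was 78 (21 higher and 57 lower, beside 4.59% of all genes), without those numbered 3 it was 1 and without those numbered 4 it was 0. DESeq2 called 2 members, Kcna1 and Stip1, of 4 genes called in all.

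Kcna1, the Kv1.1 subunit of Shaker-type potassium channels, had 219, 242, 230 and 154 reads in control and 87, 111, 134 and 100 in obesity. The groups did not overlap, at 155 ± 28.9 and 75.5 ± 11.3 CPM (SD, n = 4). The log2 fold change was -1.04 (SE 0.23, edgeR adjusted p = 0.921, with the block 0.0517, and DESeq2 adjusted p = 0.0592). Controls had 111 to 193 proximal and 37 to 81 distal reads and obesity libraries 52 to 100 and 28 to 35, so both sites were lower together and the share, 23.9% ± 8.18 and 30.5% ± 7.05, overlapped. The other 5 were also lower in obesity. Elfn2, a postsynaptic organiser of glutamate receptors, had 400 ± 40.6 and 250.0 ± 25.6 CPM (SD, n = 4), nearly all proximal. Pebp1, the Raf kinase inhibitor protein, had 198 ± 35.0 and 113 ± 48.8, Atp5c1, the gamma subunit of ATP synthase, 108 ± 27.4 and 53.6 ± 20.1, Fam134a 97.7 ± 26.4 and 51.7 ± 38.3, and Bag4 53.0 ± 38.0 and 20.6 ± 18.6. Their blocked adjusted p-values in edgeR were 0.0606 for Elfn2, Pebp1 and Bag4, 0.0802 for Atp5c1 and 0.0880 for Fam134a.

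Pebp1 was the 1 of these 6 where the sites also parted in the blocked fit of distal beside proximal reads at p under 0.01. Its proximal site had 12, 0, 1 and 0 reads in control and 13, 5, 7 and 7 in obesity, and its distal site 319, 331, 204 and 223 in control and 123, 215, 97 and 152 in obesity. Stip1, the cochaperone that links Hsp70 to Hsp90, was named after its values were seen. Its distal site had 104, 189, 81 and 146 reads in control and 424, 144, 795 and 446 in obesity, and obesity 2 lay among the controls. The log2 fold change of the gene was 1.58 (SE 0.33) with an adjusted p of 0.921 in edgeR and 0.0502 in DESeq2.

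Of all protein-coding genes 12.9% were members, and the counts by gene group are given beside that share without a test. The groups were matched mainly by the start of gene symbols, so some genes share a prefix only. Prkra among the kinases and Grina among the receptors are such cases. Of 35 proteasome genes 10 were members (28.6%), of 76 nuclear oxidative phosphorylation genes 18 (23.7%), of 57 mitochondrial ribosome genes 11 (19.3%), of 21 cleavage and polyadenylation factors 4, of 205 ubiquitin system genes 31, of 215 zinc finger genes 32, of 196 solute carriers 28 and of 51 translation factors 7. There were 3 members among 28 hypothalamic peptides and feeding genes, 15 among 166 kinases and phosphatases, 4 among 52 ribosomal proteins, 7 among 106 ion channels, 3 among 62 transmitter receptors and 2 among 44 Rab GTPases. The median distal share was 83.1% in oxidative phosphorylation members, 45.8% in zinc finger members and 36.9% in mitochondrial ribosome members, beside 58.3% over all members.

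The mean share was lower in obesity in 12 of the 18 oxidative phosphorylation members, 7 of 10 in the proteasome, 7 of 11 in the mitochondrial ribosome, 5 of 7 translation factors, 19 of 31 in the ubiquitin system, 16 of 28 solute carriers, 15 of 32 zinc finger genes, 6 of 15 kinases and phosphatases and 2 of 7 ion channels. It was lower in all 3 members of the transmitter receptor list, Grina (not itself a receptor), Gabrd and Grm4. It was lower in 2 of 4 ribosomal proteins, 2 of 4 cleavage factors and 1 of 2 Rab genes, beside 58.9% of all members. Slc32a1, the vesicular GABA transporter, had 1683 reads and a share of 98.9% ± 0.254 in control and 96.6% ± 1.13 in obesity (SD, n = 4). Every obesity library, at 95.1% to 97.7%, was below every control, at 98.6% to 99.2% (log2 ratio -1.52, SE 0.66, edgeR adjusted p = 0.999). The separation rests on few proximal reads, 3, 1, 4 and 3 in control and 6, 7, 7 and 4 in obesity. That site held 35 reads in all, near the minimum of 30 per listed site, and neither group alone would have had it listed.

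The arcuate peptide genes Pomc, the melanocortin precursor, and Agrp, its antagonist at the receptor, were members with few reads. Pomc had 42, 75, 28 and 29 distal reads in control and 11, 60, 24 and 4 in obesity, with a share of 94.0% ± 5.14 and 90% ± 11.5 (SD, n = 4). Agrp, with sites 10670 bases apart, had a share of 52.4%, 77.8%, 75% and 30.8% in control and 25%, 42.9%, 22.2% and 36.4% in obesity, on 4 to 52 reads per library. Between the sites of Agrp lay 4 sites on the opposite strand that were not assigned to Agrp but to another gene. Nucb2, the precursor of nesfatin, had 101 reads and a share of 52.0% ± 28.2 and 38.1% ± 20.7. In all 3 genes the groups overlapped.

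For the proteins that choose the sites, only their transcripts were measured, as gene sums. Of 23 cleavage and polyadenylation factors 21 had sites, 8 with a higher and 13 with a lower value in obesity, and the median log2 fold change was -0.13, beside 0.00 for all genes. None passed an adjusted p of 0.1 in edgeR with or without the block, and 2 had p under 0.05 (3 with the block), beside 627 of all 12255 genes (1338 with the block). Pabpc1, the cytoplasmic poly(A) binding protein, had 73, 60, 82 and 48 reads in control and 26, 53, 31 and 46 in obesity (log2 fold change -0.80, SE 0.35, edgeR adjusted p = 0.921), and the groups overlapped. Ppp1cb, a phosphatase found with the machinery, had -0.54 (SE 0.24). Cstf1, a subunit of the cleavage stimulation factor, had 8, 0, 9 and 6 reads in control and 34, 6, 15 and 17 in obesity (log2 fold change 1.53, SE 0.78, edgeR adjusted p = 0.921, with the block 0.376), and its groups overlapped. Among the factors that were themselves members, Cpsf2 had a share of 17.4% ± 8.49 and 19.9% ± 7.44, and Cpsf3, the endonuclease, 56.8% ± 23.7 and 75.2% ± 8.77 (SD, n = 4), both with overlap.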

How the data were processed

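WTTS-seq libraries of 8 hypothalami were analysed. The authors deposited whole-number counts of reads at each polyadenylation site, with no scaling. The submitters' processing notes name Bowtie2 2.2.3 and Rnor_6.0, and the clustering of reads into sites, the cutoff per site and the assignment to genes are not given in the sources used here. A blank line holding the total of control 1 (1710888 reads, all of that column's reads) was left out. Site usage, sites and gene sums were fitted over the whole table with edgeR 4.0.16 (TMM, robust quasi-likelihood, group only) in R 4.3.3, with Benjamini-Hochberg adjustment. An SE beside an edgeR log2 value is approximate. It is that value without its sign, divided by the square root of the quasi-likelihood F statistic. Alternatives used DESeq2 1.42.0, limma 3.58.1, edgeR's filterByExpr, other scaling, both strands, a replicate block and each library left out. Deviations of log2 CPM (library-scaled counts) correlated at 0.268 to 0.382 between same-numbered libraries and at -0.2 to -0.0387 between others, so the numbers were taken to pair them, although the labels do not say what they share. Centring on the group means lowers the values of the others in part by arithmetic. Each library came from a rat of its own, so the p-values measure the spread between these rats and between their libraries together. With the block, the part shared by libraries of the same number is taken out of that spread. Named are members past adjusted p 0.1 with or without the block, the 8 higher and 8 lower members without overlap and with the smallest site usage p, the 3 with most reads per distance class, the 2 with most reads per gene list, the 4 of widest and 4 of narrowest spread and the genes at the read minimum; not all are printed, and any other gene was chosen after its values were seen. Members, lists and rules were chosen with earlier results of these data known. The scripts were tested on simulated counts, where large changes in site use were mostly missed and only very large ones mostly found, so a count of 0 calls of site use does not bound such changes. Of the member symbols 1242 are current and 77 older names in RefSeq. Sequence was not read for lack of a genome of the build. A chi-square over sites, at its lowest 2.86 per site among 28 pairs of libraries (1 is sampling noise), left all 8 counted as separate samples. The lowest pair was control 2 with obesity 2. Obesity 2 gave 7.80, 4.64 and 4.53 with controls 1, 3 and 4, and 6.59 to 8.71 with the obesity libraries. Obesity 1, 3 and 4 were likewise nearest to the control of their own number, at 5.93, 5.14 and 3.98. What brings obesity libraries nearer to some controls than to their own group was not tested.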

Additional observations from a re-analysis of the deposited data

Results flagged for a closer look

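In 152 checks of 1 library against the other 3 of its group, over the genes named by rule, 9 stood apart, where chance gives about 8 (1 in 20), so the number of them carries no weight. The distal share of Pebp1 was 96.4% in control 1 and 99.5% to 100% in the other controls. That of Wdr34 was 95.8% in control 3 and 100% in the others, and that of Map1lc3a 89.7% in control 3, with 100% in the others, and 52.6% in obesity 1, with 66.7% to 67.7% in the others. Fbxo2, a substrate adaptor of a ubiquitin ligase, had 85.4% in control 2 (98.5% to 100% in the others) and 90.8% in obesity 2 (99.2% to 100%), both libraries having the number 2. Smim10l1 had 91.9% in obesity 1 and 88.1% to 88.7% in the others, RGD735029 7.47% in control 2 and 15.1% to 16.2% in the others, and Adamts5, with 9 reads in that library, 0.0% in obesity 3 and 42.9% to 50% in the others.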

How the results depend on the processing

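Most members had few reads per site, and no member was called for site use at an adjusted p of 0.1 under any setting. Over all genes of the table the site usage fits called up to 3 genes and the added fit up to 6, both with the block and libraries left out. The mean differences in share, over all members and in each distance class, were negative under every setting run. Of 71 single genes 26 changed sign when some library was left out, and the median log2 change of the proximal sites went from 0.01 to -0.03 with the block. The count of members with p under 0.01 for site use (2) was 1 with filterByExpr, 6 with the replicate block, 7 with limma's diffSplice, 5 in the added fit of distal beside proximal reads and 13 in that fit with the block, and 1 to 5 with libraries left out. In the added fit it was 2 to 8 without single libraries (8 without obesity 1, 4 without obesity 3) and 11, 16, 11 and 13 with the block and without numbers 1 to 4. For sites it (9) was 53 with the block, 19 with DESeq2 and 7 to 114 with libraries left out (35, 114, 38 and 39 with the block and without numbers 1 to 4), and for gene sums (15) 49 with the block and 9 to 101 (38, 101, 34 and 30). Adjusted calls were 0 to 24 sites and 0 to 78 genes (9, 78, 1 and 0 with the block) with libraries left out, the highest without the libraries numbered 2, and 6 genes with the block and 2 with DESeq2. Without obesity 2 alone the unblocked fits gave 32 sites and 41 genes at p under 0.01 and 1 adjusted gene call, Stip1. The mean share differed by -1.78 to -3.47 and in the most distant class by -3.92 to -7.15 with 1 library left out, the widest without obesity 2. The other classes gave -0.318 (without obesity 3) to -2.80 (without obesity 1) under 100 bases, -0.388 (without control 1) to -1.19 (without control 2) at 100 to under 1000, and -1.10 (without obesity 3) to -3.07 (without obesity 2) at 1000 to under 10000. On pooled reads it was -3.46, and -2.93 at 100 to under 1000 bases, which without COX2 was -0.145. The check of A-rich stretches and signal motifs was not run.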
